A study of Caenorhabditis elegans with 2 samples.

Results

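The nuclear genes of the respiratory chain and the ATP synthase in *Caenorhabditis elegans* were examined for binding by the transcription factor SKN-1 at the L4 larval stage. They were chosen by name from the Ensembl annotation of assembly WBcel235, as protein-coding genes called *nuo-*, *nduf-*, *sdha-*, *sdhb-*, *sdhd-*, *ucr-*, *cox-* or *atp-*, together with *gas-1*, *mev-1*, *isp-1*, *cyc-1*, *asb-1*, *asb-2*, *asg-1* and *asg-2*. This gave 49 of 19973 nuclear protein-coding genes. By complex, they were 13 genes of complex I, 5 of complex II, 7 of complex III, 7 subunits and 8 assembly factors of complex IV, and 9 genes of the ATP synthase. The naming rule itself uses no binding values. It leaves out subunits whose genes carry other names, so that a complex here means its genes under this rule.

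Chromatin immunoprecipitation and sequencing (ChIP-seq) had been done on 2 biological replicates, which form 1 group. The worms were whole L4 larvae of strain OP342, genotype unc-119(ed3) III; wgIs342, of mixed sex, in which an inserted transgene supplies eGFP-tagged SKN-1. Both replicates carry the *unc-119* mutation and the transgene, and neither is an untagged or mock control. The data therefore record where ChIP signal lay. They do not show how much of it depends on the tagged protein, or what a change in SKN-1 does. Whole worms give 1 profile for all tissues together.

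The respiratory chain passes electrons from food to oxygen along carriers in the inner mitochondrial membrane. Complex I takes them from NADH and complex II from succinate, ubiquinone carries them to complex III, and cytochrome c carries them on to complex IV, where oxygen is reduced to water. Complexes I, III and IV pump protons, and the ATP synthase uses the return of those protons to make ATP. SKN-1 is the worm relative of the mammalian Nrf factors, known above all for switching on detoxification genes.

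Each region in the authors' lists has a signal value, the strength given by their peak caller on a scale that is not stated. The signal was used here to rank regions within a list, with rank 1 the strongest, and it has no replicate error. A list from the pooled replicates held 29768 regions with signals of 6.98 to 80.4, and 97 of these, with signals of at least 29.0, made up the authors' list of thresholded peaks. The list of each replicate held 30000 regions. These lists are relaxed, so that a weak region in them does not mark a bound site. For each gene, the strongest region was taken whose summit, the point the authors give as its centre, fell in a window reaching 1000 bp upstream and 500 bp downstream of the first base of the gene, its outermost annotated start. Read depth is unknown, because the lists hold no read counts. Coordinates are on ce11, counted from 1.

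Strong regions were found at a larger share of the respiratory genes than of all protein-coding genes. A thresholded peak lay in the window of 3 of the 49 genes (6.12%, exact 95% binomial interval 1.28 to 16.9%), *atp-1*, *cox-5A* and *sdha-1*, against 0.371% of all protein-coding genes. One of the 1000 strongest pooled regions lay in the window of 6 of the 49 (12.2%, 4.63 to 24.8%), against 2.48% of all genes, with *cox-5B*, *mev-1* and *cox-6A* as the other 3. Of the 5000 strongest pooled regions, at least 1 lay in the window of 12 of the 49 (24.5%), against 9.46%. A pooled region of any strength was present for 33 of the 49 (67.3%, 52.5 to 80.1%), against 41.7%. The intervals cover counting error over genes only, and genes that share a window are not independent. No test was made of these shares, since the genes were proposed with results of these data in view.

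**Figure D1:**
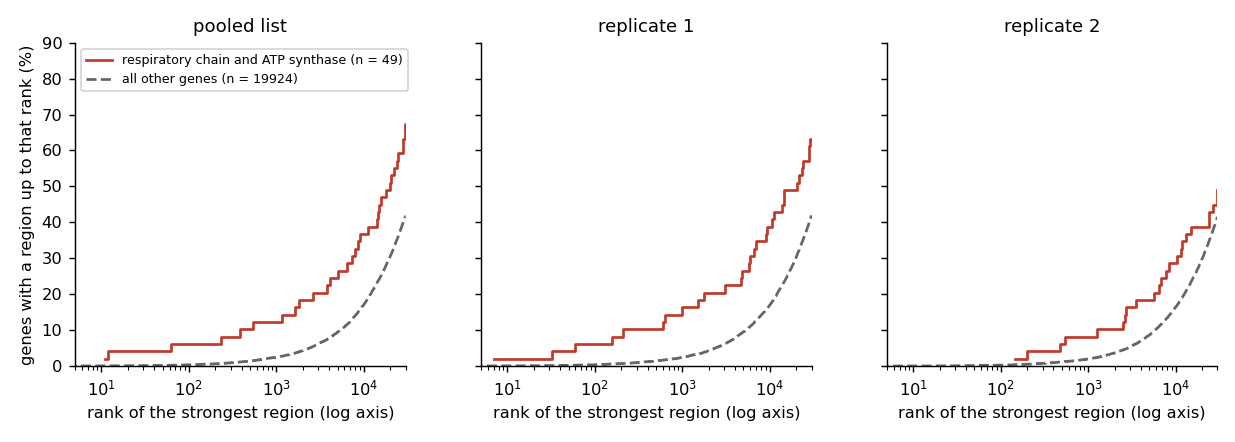
Share of genes (vertical axis, in percent) that hold a region up to a given rank (horizontal axis, log scale) in the pooled list, replicate 1 and replicate 2, for the 49 respiratory chain and ATP synthase genes (red) and the 19924 other protein-coding genes (grey, dashed). In the pooled list and replicate 1 the red line runs above the grey one from its first gene on and ends at 67.3% and 63.3%, while in replicate 2 the 2 lines draw close at the weakest ranks, where the red line ends at 49%.

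In the pooled list, the respiratory genes with 1 of the 1000 strongest regions belonged to complex II, complex IV and the ATP synthase. Among the 1000 strongest pooled regions were 2 of 5 complex II genes, 3 of 7 complex IV subunits and 1 of 9 ATP synthase genes. There were 0 of 13 complex I genes, 0 of 7 complex III genes and 0 of 8 assembly factors. Over all genes that share was 2.48%, so a count of 0 in groups this small does not set a complex apart. The list of complexes also depends on the cut. Among the 5000 strongest were 0 of 13 complex I genes, 2 of 5 of complex II and 2 of 7 of complex III. There were 5 of 7 complex IV subunits, 1 of 8 assembly factors and 2 of 9 ATP synthase genes, against 9.46% of all genes. A pooled region of any strength was present for 7 of 13 complex I genes (53.8%), 4 of 5 complex II genes and 5 of 7 complex III genes. It was present for 6 of 7 complex IV subunits, 4 of 8 assembly factors and 7 of 9 ATP synthase genes. Over all genes that share was 41.7%. When all genes were ordered by their strongest pooled region and genes with none were placed last, the median gene stood at place 7900 in complex I, 4672 in complex II, 4741 in complex III, 1480 among complex IV subunits and 3804 in the ATP synthase. For the assembly factors it stood between the last gene with a region and those with none (8296.5), as 4 of the 8 had none. The order differed between the replicates, with the ATP synthase first in replicate 1 (place 2558, then complex IV subunits at 4482) and complex II first in replicate 2 (place 1966, then complex IV subunits at 3835). With groups of 5 to 13 genes these figures describe the complexes and do not show that they differ. In replicate 2 alone, 3 of 13 complex I genes and 3 of 7 complex III genes had a region, against 41.6% of all genes. With 0 of 13 found in complex I, a share of up to 23.1% (3 counts) remains possible.

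**Figure D2:**
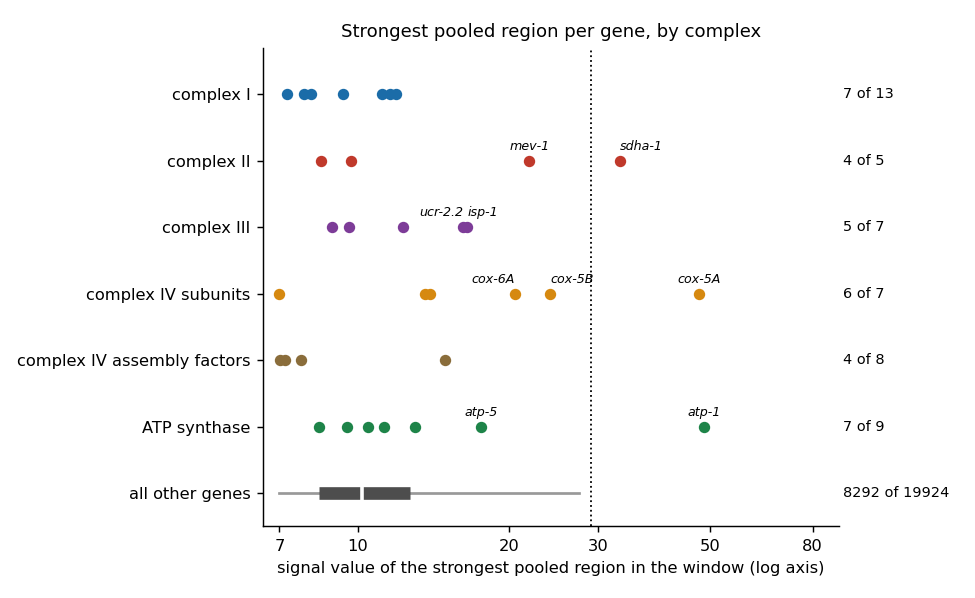
Signal of the strongest pooled region in the window of each respiratory gene (points, horizontal log axis, authors' signal value), by complex, with the number of genes that have a region at the right. The lowest row gives the 8292 other genes with a region (thick bar, middle 50%, white tick, median, and thin line, minimum to 99th percentile). The dotted line marks the weakest thresholded peak, 29.0. The complex I genes shown end at 11.9, while *atp-1*, *cox-5A* and *sdha-1* lie past the dotted line.

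Complex I, the entry point for electrons from NADH, had no region among the 1000 strongest of any list, against 1.98 to 2.48% of all genes. Its 7 genes with a pooled region had signals of 7.26 to 11.9, against a median of 10.2 over the 8325 protein-coding genes with a region, and 3 of the 7 were above that median. The strongest of these 7 was at *nduf-2.2*. It is one of a pair of genes for the same core subunit of the arm that passes electrons to ubiquinone. Its signal was 11.9 (rank 7255), with a summit 821 bp upstream that also lay 622 bp upstream of *dlc-1*. Its partner *gas-1*, whose loss makes worms hypersensitive to volatile anaesthetics, had no region in any list. The gene *nuo-1*, for the NADH-binding flavoprotein, had a signal of 11.6 (rank 7839), 131 bp upstream and shared with *rpl-36.A*. The gene *nduf-6* had 11.2 (rank 9095), 300 bp upstream and shared with *nars-1*. The other 4 genes with a region were *nuo-6*, *nduf-7*, *nduf-9* and *nduf-11*, at ranks 15719 to 27715. No pooled region lay in the windows of the remaining 6 genes, *gas-1*, *nduf-5*, *nuo-2*, *nuo-3*, *nuo-4* and *nuo-5*. Of these, *nuo-2* had a region in replicate 1 at rank 1495 and none in replicate 2. A stronger pooled region stood just outside the window of *nuo-4*, 1152 bp upstream, at rank 1403 (signal 17).

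Complex II, succinate dehydrogenase, is also an enzyme of the citrate cycle. The gene *sdha-1* (WBGene00015391) encodes its flavoprotein, the catalytic subunit. Its pooled peak (chromosome X, 8545884 to 8546273, outside protein-coding genes) had a signal of 33.2 at rank 63, with the summit 58 bp upstream. In replicate 1 the strongest region had a signal of 13.9 (rank 208), and in replicate 2 it had 15.2 (rank 146). With *atp-1* it was 1 of 2 respiratory genes (4.08%) that stood among the 1000 strongest regions of both replicates, against 0.531% of all genes. The weakest of the 97 thresholded peaks was at 29.0, so that *sdha-1* lay inside that limit and the next respiratory gene, *cox-5B*, outside it at 24.1. The second flavoprotein gene, *sdha-2*, had a pooled signal of 9.69 (rank 14262), 79 bp downstream of its start. Of this pair, only *sdha-1* thus had a thresholded peak.

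The *sdha-1* peak overlapped an annotated small nucleolar RNA gene, *D2021.6*, which lies on the same strand (chromosome X, 8546076 to 8546204). The overlap held in the pooled list and in both replicates, and the pooled summit itself (8546079) lay inside that gene, while the summits of replicate 1 (8546222) and replicate 2 (8546072) lay just outside it. The WBcel235 sequence from 158 to 1 bp upstream of the *sdha-1* start (chrX:8546022-8546179, minus strand) is shown because it holds the summit, and the 104 capitals mark the bases of *D2021.6*.
sdha-1 upstream: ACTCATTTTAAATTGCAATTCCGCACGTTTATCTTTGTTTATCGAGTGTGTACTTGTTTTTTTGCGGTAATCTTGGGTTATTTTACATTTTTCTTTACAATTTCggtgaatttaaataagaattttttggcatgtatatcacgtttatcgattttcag

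The gene *mev-1* (WBGene00003225) encodes the cytochrome b subunit that anchors complex II in the membrane, and its mutants are short-lived and sensitive to oxygen. Its pooled region (chromosome III, 10333942 to 10334331, intergenic) had a signal of 21.9 at rank 388. Replicate 1 had a signal of 14.8 (rank 157) and replicate 2 had 7.83 (rank 5690), so that it was strong in 1 replicate only. The summit lay 140 bp upstream of *mev-1* and 119 bp upstream of *jmjd-4*, which is transcribed the other way, so that *jmjd-4* was the nearer. The iron-sulfur subunit gene *sdhb-1* had a pooled signal of 8.47 at rank 20102, 385 bp upstream. The gene *sdhd-1*, for the other membrane anchor, had no region in any list, and the nearest pooled summit was 636 bp downstream of its start.

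Sequence at the *mev-1* summit is shown because this was a strong respiratory region between genes that overlaps no annotated small RNA gene. It is 201 bp of WBcel235 around the pooled summit, on the strand of the gene (chrIII:10334037-10334237, plus strand). Capitals mark TGACGCA, which began 146 bp upstream of the *mev-1* start.
mev-1 summit: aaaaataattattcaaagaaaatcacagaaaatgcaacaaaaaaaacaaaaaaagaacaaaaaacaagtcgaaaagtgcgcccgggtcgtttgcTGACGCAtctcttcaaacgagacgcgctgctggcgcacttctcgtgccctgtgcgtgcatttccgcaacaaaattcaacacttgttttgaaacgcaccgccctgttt

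Complex III, which hands electrons from ubiquinone to cytochrome c, had pooled signals of 8.88 to 16.5. The gene *isp-1*, for the Rieske iron-sulfur protein, whose partial loss lengthens life, had a signal of 16.5 at rank 1618. That summit lay 617 bp upstream, inside an intron and 283 bp downstream of the start of *islo-1*. The gene *ucr-2.2* (WBGene00011679), for a core protein, had a pooled region (chromosome X, 15173498 to 15173887, intergenic) with a signal of 16.2 at rank 1797, 211 bp upstream. It was strong in replicate 1 alone, with a signal of 11.1 (rank 594), against 4.57 (rank 24304) in replicate 2. The related genes *ucr-2.1* and *ucr-2.3* lacked a pooled region. The cytochrome c1 gene *cyc-1* had a signal of 12.3 (rank 6392), 343 bp upstream, and no region in either replicate. The remaining genes *ucr-1* and *ucr-11* had signals of 9.62 and 8.88.

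Complex IV is cytochrome c oxidase. In the pooled list it had the most genes among the 1000 strongest regions, all nuclear subunits that surround the catalytic core. In replicate 1, 2 of its subunits and 1 assembly factor were there, against 2 genes each of complex II and the ATP synthase. In replicate 2 it was 1 subunit, against 2 ATP synthase genes. The region at *cox-5A* (WBGene00012553; chromosome III, 12905131 to 12905228, intergenic) had a pooled signal of 47.6 at rank 12, with the summit 315 bp upstream. Replicate 1 had a signal of 35.7 (rank 7) there and replicate 2 had 10.8 (rank 1269). The region at *cox-5B* (WBGene00000371; chromosome I, 9788551 to 9788940) had a pooled signal of 24.1 at rank 235, with its summit 21 bp downstream of the start in the 5′ UTR. Replicate 1 had 19.4 (rank 60) and replicate 2 had 6.28 (rank 11899). Both genes were thus far nearer the top in replicate 1.

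The region at *cox-6A* (WBGene00006519; chromosome III, 5080772 to 5081161, intergenic) went the other way between the replicates. Its pooled signal was 20.5 at rank 535, with a signal of 6.88 (rank 5830) in replicate 1 and 12.8 (rank 470) in replicate 2. The summit lay 757 bp upstream of the start. The region overlapped an annotated small nuclear RNA gene, *F54D8.7*, on the opposite strand (chromosome III, 5080798 to 5080898), in the pooled list and in replicate 2.

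The strongest region overlapped a gene for small nuclear, small nucleolar or transfer RNA at 2 of the 33 respiratory genes with a pooled region (6.06%), against 1.15% of all genes with one. Among genes with 1 of the 1000 strongest regions it was 2 of 6 (33.3%), against 3.84% of all 495. Among those with a thresholded peak it was 1 of 3, and that gene, *sdha-1*, was also the only 1 of all 74 (1.35%). With such regions left out, an alternative chosen after the overlap was seen, 2 of the 49 genes kept a thresholded peak, against 0.365% of all genes, and 4 a place among the 1000 strongest, against 2.38%. The part of these small RNA genes in the signal at *sdha-1* and *cox-6A* was not tested. The 201 bp around the *cox-6A* summit (chrIII:5080867-5081067, plus strand) are shown for that overlap, with the 32 bases of *F54D8.7* in capitals.
cox-6A summit: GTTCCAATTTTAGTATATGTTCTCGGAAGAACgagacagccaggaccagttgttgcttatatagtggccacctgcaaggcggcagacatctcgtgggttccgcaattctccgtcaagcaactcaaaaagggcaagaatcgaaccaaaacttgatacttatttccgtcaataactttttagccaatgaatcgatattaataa

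The other complex IV subunits had weaker regions. The gene *cox-6C* had a signal of 13.9 (rank 3775), 78 bp upstream, in a window shared with *grld-1*. The gene *cox-4* had 13.6 (rank 4156), with the summit 466 bp downstream in a coding exon, near the edge of the window. The gene *cox-6B* had 6.98 at rank 29753, near the end of the list, and *cox-7C* had no pooled region. Among assembly factors, which insert haem and copper or guide the joining of subunits, *cox-14* (WBGene00011875; chromosome III, 10218605 to 10218994, intergenic) had the strongest region. Its pooled signal was 14.9 (rank 2657), with 10 (rank 982) in replicate 1 and 6.04 (rank 13182) in replicate 2. That summit was 142 bp upstream of *cox-14* and 154 bp upstream of *rde-4*, a gene of the RNA interference pathway. The haem synthesis genes *cox-10* and *cox-15* and the gene *cox-16* had signals of 7.01 to 7.72. The copper-delivery genes *cox-11*, *cox-17* and *cox-19* and the insertion factor gene *cox-18* had no pooled region.

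The ATP synthase held the strongest respiratory region. The gene *atp-1* (WBGene00010419) encodes the alpha subunit of the catalytic head. Its peak (chromosome I, 12652087 to 12652476) had a pooled signal of 48.6 at rank 11, with the summit 5 bp downstream of the start, in the 5′ UTR. Replicate 1 had a signal of 22.7 (rank 32) and replicate 2 had 14.5 (rank 202), with summits within 8 bp of the start in both. The summit also lay 195 bp upstream of *mcrs-1*. The beta subunit gene *atp-2*, which forms the head together with *atp-1*, had a signal of only 11.3 (rank 8660), 370 bp downstream in a coding exon and in the windows of *C34E10.10* and *C34E10.12*.

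The genes of the stalk and membrane part of the ATP synthase varied. The gene *atp-5*, for a stator subunit, had a signal of 17.6 (rank 1172), 307 bp upstream and only 12 bp upstream of *lmtr-3*. The gene *atp-4* (WBGene00020275; chromosome V, 6427665 to 6428054), for a coupling factor, had a pooled signal of 10.5 (rank 11210), 748 bp upstream in the 3′ UTR of another gene. It had a signal of 11 (rank 639) in replicate 1 and no region in replicate 2. The gene *atp-3* (WBGene00000230), for the stator subunit that confers oligomycin sensitivity, lacked a pooled region in the window. Its nearest summit (rank 558, signal 20.4) was 603 bp downstream of the outermost start. In replicate 2 a region 444 bp downstream had a signal of 12.4 (rank 544), and in replicate 1 the strongest had 6.04 (rank 9384). The gene has 4 annotated starts. With any annotated start used, *atp-3* joined the 1000 strongest pooled regions, which then held 7 of the 49 genes, against 2.84% of all genes. Of the paired genes for the stator subunit b, *asb-2* had a signal of 13 (rank 5103), 197 bp downstream in a coding exon, while *asb-1* had no pooled region and 1 in replicate 2 at rank 29866. Of the paired genes for subunit g, *asg-1* had 8.4 and *asg-2* had 9.52.

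In all, 16 of the 49 genes lacked a pooled region, as 67.3% had one, against 41.7% of all genes. Lacking a region was thus less common here than over all genes. Of the 16, 7 had none in any of the 3 lists, namely *gas-1*, *nduf-5*, *nuo-4*, *nuo-5*, *sdhd-1*, *cox-17* and *cox-18*. The share of all genes with none in any list was not counted. More than 1 pooled region was present for 5 of the 49 genes (10.2%), against 9.11% of all genes.

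The replicates placed different respiratory genes at the top. Replicate 1 had 8 of the 49 genes among its 1000 strongest regions (16.3%), against 2.48% of all genes. They were *cox-5A*, *atp-1*, *cox-5B*, *mev-1*, *sdha-1*, *ucr-2.2*, *atp-4* and *cox-14*. Replicate 2 had 4 (8.16%), against 1.98%, and these were *sdha-1*, *atp-1*, *cox-6A* and *atp-3*. A region of any strength was present for 31 genes in replicate 1 (63.3%), against 42% of all genes, and for 24 in replicate 2 (49%), against 41.6%. In replicate 2 the share over regions of any strength was thus near that of all genes. Both lists held a region for 17 of the 49 genes (34.7%), against 20.9%. The strongest regions of both replicates overlapped each other for 10 genes (20.4%), against 10.5% of all genes. Counted only over genes with a region in both lists, this was 10 of 17 (58.8%), against 50.3% of all such genes. The 2 shares were thus nearer each other on that count. The 10 genes were *mev-1*, *sdha-1*, *ucr-2.2*, *cox-4*, *cox-5A*, *cox-5B*, *cox-6A*, *cox-14*, *asb-2* and *atp-1*. None was from complex I, of which only 2 of 13 genes had a region in both lists.

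Of the 17 genes in both lists, 8 stood nearer the top in replicate 1 (47.1%) and 9 in replicate 2. Of all genes in both lists, 51.5% stood nearer the top in replicate 1, a share near that of the respiratory genes. Across these 17 genes the ranks had a Spearman rho of 0.289, and across the 4167 protein-coding genes in both lists it was 0.171. These are descriptions across genes, which share libraries and windows. When the 97 strongest regions of a single replicate stood in for the thresholded list, replicate 1 gave 3 respiratory genes, *cox-5A*, *atp-1* and *cox-5B*, against 0.391% of all genes, and replicate 2 gave 0, against 0.28%. At a share that low, 0 of 49 sets the respiratory genes apart in neither direction. Regions were 240 bp wide in replicate 1 and 396 bp in replicate 2 at the median, so the lists also differ in resolution.

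**Figure D3:**
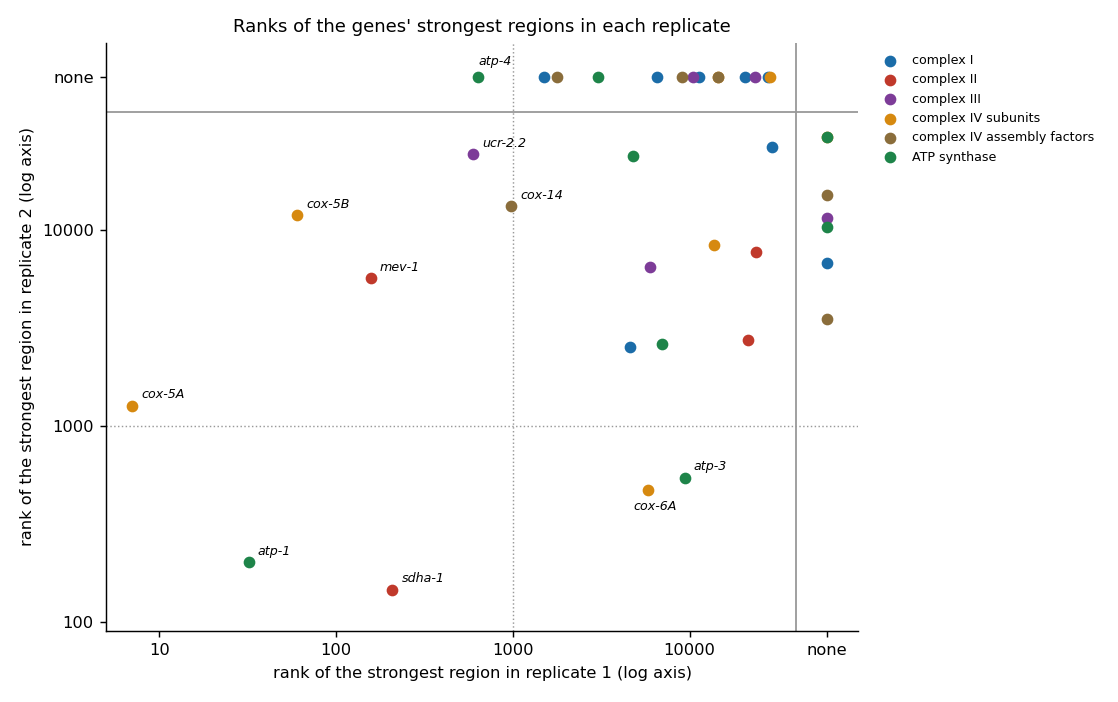
Rank of each respiratory gene's strongest region in replicate 1 (horizontal, log axis) and replicate 2 (vertical, log axis), coloured by complex, with genes that have a region in 1 replicate only drawn at "none" and dotted lines at rank 1000. The genes *atp-1* and *sdha-1* lie in the lower left corner, within rank 1000 of both, while *cox-5A*, *cox-5B* and *mev-1* are strong in replicate 1 and *cox-6A* and *atp-3* in replicate 2.

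Summits were placed much as for other genes. Of the 33 genes with a pooled region, 23 had the summit upstream of the start (69.7%), against 66.7% of all genes with a region, and 15 within 500 bp upstream (45.5%), against 36.6%. The median position was -167 bp for the respiratory genes and -217 bp for all genes. By the annotation of protein-coding genes, which leaves non-coding genes out of account, 16 summits were intergenic (among them that of *sdha-1*, inside *D2021.6*), 9 in a coding exon, 4 in an intron, 2 in a 5′ UTR and 2 in a 3′ UTR, of this or a neighbouring gene. The median GC content of the 201 bp around the summit was 39.3%, against 37.3% for all genes.

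**Figure D4:**
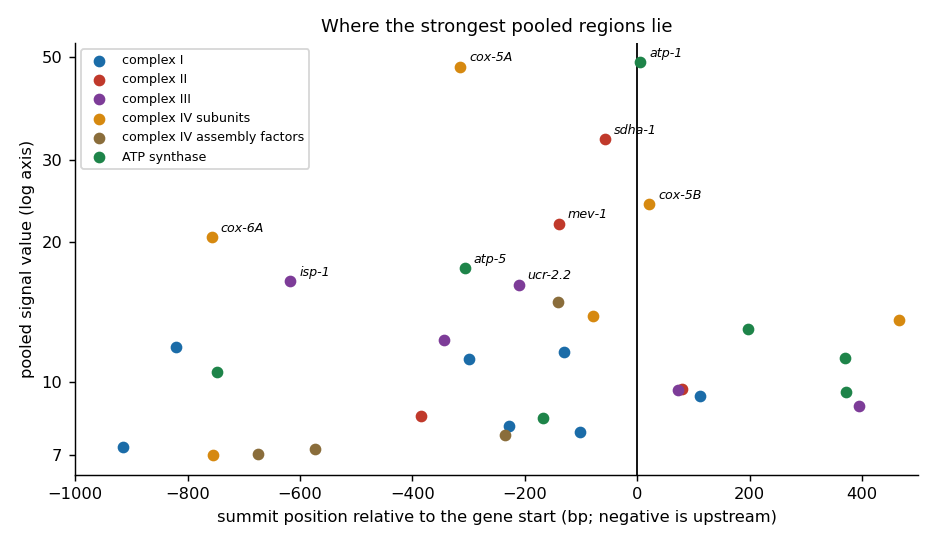
Position of the summit of the strongest pooled region relative to the gene start (horizontal axis, bp, negative upstream) and its signal (vertical log axis) for the 33 respiratory genes with a pooled region, coloured by complex. The regions of *atp-1* and *cox-5B* sit on the start, at 5 and 21 bp downstream, and those of *cox-5A* and *cox-6A* stand 315 and 757 bp upstream.

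A larger share of the respiratory genes than of all genes had a close neighbour. The window overlapped that of another protein-coding gene for 36 of the 49 (73.5%), against 37.8% of all genes. The summit of the strongest region lay also in another gene's window for 19 of 33 (57.6%), against 27.2%. The neighbours at such summits included *jmjd-4* at *mev-1*, *mcrs-1* at *atp-1*, *lmtr-3* at *atp-5* and *rde-4* at *cox-14*. When each region was counted for the nearest start only, 23 of the 49 genes (46.9%) kept a pooled region, against 36.3% of all genes, so that the shares drew closer together. Under that count *mev-1* left the 1000 strongest, which then held 5 of the 49, against 1.94%. The signal cannot tell which gene of such a pair it belongs to.

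The SKN-1 site, written as A or T, A or T, T, A or G, then TCAT, was looked for on both strands in the 201 bp around each summit. It was present at 0 of the 33 respiratory summits, against 9.09% for all genes with a pooled region. With 0 of 33 found, a share of up to 9.09% (3 counts; exact 95% upper limit 10.6%) remains possible, so this count does not set respiratory genes apart. The shorter core, A or G followed by TCAT and contained in that site, was present at 12 (36.4%), against 55.7%. It was present at 0 of the 6 genes among the 1000 strongest, against 49.9% of the 495 genes there. That count rests on 6 genes, 2 of them with a region over a small RNA gene, and the difference was not tested. Over the whole window the full site was present for 19 of the 49 genes (38.8%), against 55.9%. The GATA site TGATAA was present at 6 summits (18.2%), against 17.4%, and GAGAGA at 7 (21.2%), against 15%. The run TGCGTCT was at 0 of the 33, against 3.68%, and at a share that low a count of 0 does not set respiratory genes apart. A match describes letters in this stretch and no more, and a missing match says nothing about the factor.

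Genes that work in or beside the respiratory chain but fall outside the naming rule were taken from a list of 35 nuclear genes. They covered electron carriers and ubiquinone synthesis, the citrate cycle, ADP/ATP carriers and partners of the ATP synthase. The last group covered biogenesis and other subunits of complexes I and IV. A pooled region was present for 27 of the 35, against 41.7% of all genes, with 4 among the 1000 strongest, against 2.48%, and 0 thresholded peaks, against 0.371%. The citrate synthase gene *cts-1* had a pooled signal of 22.7 (rank 310) and stood among the 1000 strongest of both replicates, at rank 405 in replicate 1 and 801 in replicate 2. The aconitase gene *aco-2* had 20.8 (rank 510), with rank 3537 in replicate 1 and 209 in replicate 2. The gene *clk-1*, for a hydroxylase of ubiquinone synthesis, had 20.7 (rank 519), and *sco-1*, for a copper chaperone of complex IV, had 19.4 (rank 699). By group, a pooled region was present for 8 of 10 genes of electron carriers and ubiquinone synthesis and 10 of 13 of the citrate cycle. It was present for 3 of 4 carriers, 2 of 3 partners and 4 of 5 genes of the last group. In that last group, *lpd-5* had a pooled signal of 15.8 (rank 1993), above the 11.9 at *nduf-2.2*. The lists hold no region on mitochondrial DNA, so the subunits encoded there were not analysed here.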

How the data were processed

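The data were 4 lists of regions on ce11 from 2 biological replicates of 1 group, made by the authors: 1 per replicate, 1 from the pooled replicates and 1 of peaks that passed a threshold on reproducibility, per the file listings that accompany the samples. The signal value of each region is the deposited value of the authors' peak caller, on an unstated scale, and ranks regions within a list only. Which aligner, caller and threshold were used is not given in the sources used here. The ce10 lists and the control alignment were not used here. The deposited lists hold no read counts, so depth is unknown.

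The genes and lists were chosen with earlier results of these data known. Ensembl release 115 genes were joined to regions by summit, in a window of 1000 bp before and 500 bp after the outermost start, and a summit in several windows counted for each gene. Summits lay in the middle of 29764 of the 29768 pooled regions. Members with a thresholded peak, or among the 1000 strongest regions of any list, are given in full. The next members by pooled signal, up to 20 in all, are given with pooled values, and the rest by counts, ranges or name. Overlap needed at least 1 bp. Motifs were searched on both strands of 201 bp around the summit in the WBcel235 genome from RefSeq. Because there is 1 group, no test between conditions was possible, and the main counts are set beside shares of all protein-coding genes. Intervals are Clopper-Pearson at 95%. Assignment was tested on planted regions, where 100 of 100 inside the window were recovered and 0 of 100 outside were assigned. Python 3.11.15, numpy 2.4.6, scipy 1.17.1 and matplotlib 3.10.9 were used. Alternatives varied the window, the start, the assignment, the threshold and the replicates.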

Additional observations from a re-analysis of the deposited data

How the results depend on the processing

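Of 92 alternative counts, 77 stayed within 1.5 times the reported one, 1 rose above that and 14 fell below it. The cause was not tested beyond what each alternative leaves out. With the window ended at the start, 3 of 7 genes of complex III and 4 of 9 of the ATP synthase had a pooled region, against 30.3% of all genes. Under that window 10 of the 49 had a region in both replicate lists, against 12.3% of all genes. With the window from 500 bp upstream to 500 bp downstream, 2 of 8 assembly factors had a pooled region, against 31.5% of all genes. With the window from 2000 bp upstream, 30 of the 49 had a region in both replicate lists, against 35.5% of all genes. With each region counted for the nearest start only, 2 of 5 genes of complex II, 3 of 7 of complex III and 2 of 8 assembly factors had a pooled region. Over all genes that share was 36.3%. Under that count 11 of the 49 had a region in both lists, against 16.5%. With only pooled regions above the median signal of the list, 21 of the 49 had a region, against 24.1%, among them 3 of complex I and 1 assembly factor.

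With 1 replicate left out, the count of genes with a thresholded peak was 0 without replicate 1, against 0.28% of all genes. It was 3 without replicate 2, against 0.391%. Genes with any region numbered 24 without replicate 1 (49%, against 41.6% of all genes) and 31 without replicate 2 (63.3%, against 42%). Those among the 1000 strongest numbered 4 without replicate 1 (8.16%, against 1.98%) and 8 without replicate 2 (16.3%, against 2.48%). By complex, genes with any region numbered 3 to 7 of 13 in complex I, 4 of 5 in complex II and 3 to 4 of 7 in complex III. They numbered 5 to 6 of 7 among complex IV subunits, 3 to 4 of 8 among assembly factors and 6 of 9 in the ATP synthase. Complex I and complex III stood at 3 each without replicate 1. No paired analysis was possible because both samples belong to 1 group. Unknown depth, 2 replicates, an unstated signal scale and shared windows limit every count, and no untagged worms show how much of the signal depends on SKN-1.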

Other observations

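The run TGACGCA was noticed in summit sequences, that of *mev-1* among them, and then counted, so its values were chosen after the data were seen and are not tested. It lay within 100 bp of the summit, on either strand, at 4 of the 33 respiratory genes with a pooled region (12.1%). These 4 were *cox-5A*, *mev-1*, *ucr-2.2* and *nduf-6*. Of all protein-coding genes with a pooled region, 2.07% had it. Among genes with 1 of the 1000 strongest pooled regions it was present at 2 of 6 respiratory genes, *cox-5A* and *mev-1*, against 6.46% of all 495 genes. Over the pooled list as a whole it was present at 6.19% of the 97 strongest regions, 3.32% of ranks 98 to 1000, 1.43% of ranks 1001 to 5000 and 1.28% of the weaker ones.

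Of the 49 respiratory genes, 15 lay on chromosome I (30.6%), against 14.4% of all protein-coding genes, and 13 on chromosome III (26.5%), against 13.2%. Of the 6 with 1 of the 1000 strongest pooled regions, 2 lay on chromosome I, 3 on chromosome III and 1 on chromosome X, against 19.6%, 17% and 14.9% of all 495 genes with such a region.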
